A study of Homo sapiens with 4 samples.

Results

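Spliceosomal snRNAs are the short nuclear RNAs at the core of the splicing machinery, and the human genome holds, beside their genes, many degenerate copies of them. The transcripts described here were all those with the class snRNA in the deposited tables of a beta-catenin RNA immunoprecipitation (RIP-Seq) experiment in 2 colon cancer lines, leaving out U3 and U8, of which there were 0 in these tables. They numbered 44 of 9880 listed transcripts for HT-29 and 35 of 11943 for CaCo-2. Together they were 74 different transcripts of the 19895 listed in either line, and 5 were listed in both lines. They were grouped by name into U1, U2, U4, U5, U6, U11, U12, U4atac and U6atac, and a name ending in P, or in P and digits, was counted as a pseudogene copy. One transcript in each line belonged to U7, which serves histone mRNA processing and not the spliceosome.

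HT-29 and CaCo-2 are established human colon adenocarcinoma lines, and the cells of all 4 libraries had no treatment. In each line, RNA was extracted from a nuclear lysate after precipitation with the beta-catenin antibody Bethyl A302-012A and protein G beads (the RIP), or without antibody (the input). There was 1 library per group, so no value below carries a replicate error, and no difference between libraries was tested. A control precipitation, with an antibody to something else, was not analysed here. The lowest deposited fold of RIP over input in either table was 1.5, so the direction of every difference was set by the selection. For this reason absence of a gene from these tables says nothing about its binding.

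In the major spliceosome, U1 pairs with the start of an intron and U2 with its branch point, and U4, U5 and U6 join as a preassembled complex in which U4 holds U6 inactive until it is released. A minor spliceosome, built on U11, U12, U4atac and U6atac with a shared U5, removes a rare class of introns. U6 and U6atac are made by RNA polymerase III. The others are made by RNA polymerase II and carry a ring of Sm proteins. FPKM, the unit of the tables, counts sequenced fragments relative to transcript length and library size, so a value is a share of its library, and more of an RNA in the precipitate cannot be told apart from less of other RNA.

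The snRNAs of HT-29 were led by the U4 genes, whereas 25 of the 33 CaCo-2 transcripts whose fragments could be set, as described below, had 1 RIP fragment. Genes made up 9 of the 44 transcripts in HT-29 and pseudogene copies 34. In CaCo-2 there were 2 genes and 32 copies. By family, HT-29 had 17 transcripts of U1, 13 of U2, 4 of U4, 2 of U5, 5 of U6, and 1 each of U4atac and U6atac. CaCo-2 had 8 of U1, 2 of U2, 6 of U4, 1 of U5, 13 of U6, 1 of U11, 2 of U4atac and 1 of U6atac. No U12 transcript was listed in either line. The transcripts listed in both lines were RNU1-34P, RNU1-60P, RNU2-63P, RNU5F-1 and RNU6-31P, which is 11.4% of the HT-29 set and 14.3% of the CaCo-2 set.

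**Figure D1:**
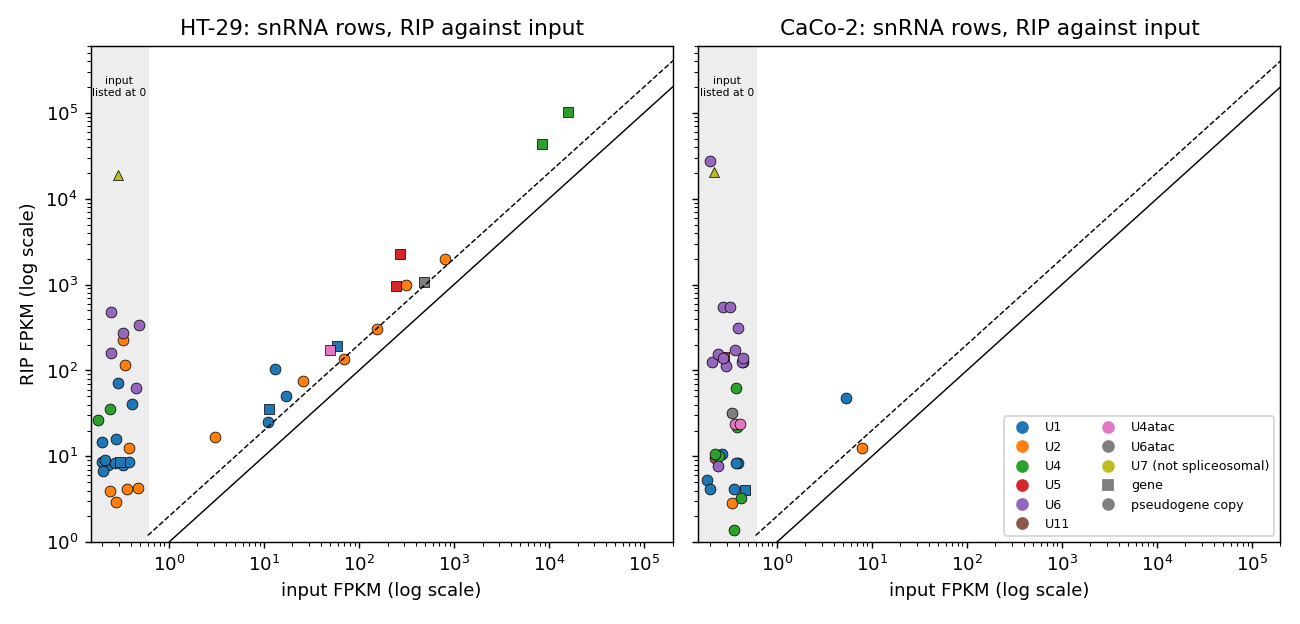
FPKM of each snRNA transcript in the RIP (vertical) against the input (horizontal) of its line, both on log scales, with squares for genes, circles for pseudogene copies, a triangle for U7 and colours for families. The solid line marks equal values and the dashed line a 2-fold difference; transcripts with input listed at 0 lie in the grey band, where horizontal position has no meaning. RNU4-1 and RNU4-2 stand at the upper right in HT-29, and 33 of 35 CaCo-2 transcripts lie in the band.

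Counted with a pseudocount of 1 FPKM added to both values, 42 of 44 snRNA transcripts in HT-29 were at least 2-fold above input (95.5%), beside 56.0% of all listed transcripts. In CaCo-2, 34 of 35 reached 2-fold (97.1%), beside 40.8% of all listed transcripts with at least 1 FPKM. Most of these counts came from an input listed at 0, which makes a transcript of such a FPKM pass 2-fold by construction: 27 of 44 for HT-29 (61.4%) and 33 of 35 for CaCo-2 (94.3%). Among transcripts with input above 0, 15 of 17 reached 2-fold in HT-29 (88.2%), beside 35.5% of all such transcripts. In CaCo-2 that count was 1 of 2, beside 19.5%. The selection bears on these counts too, because 8 of the 17 HT-29 transcripts had at most 2 input fragments, set as described below. RNU1-122P, for example, was at 2.26-fold with 2 RIP fragments over 1, and with 1 RIP fragment it would not have been listed. How much of the 88.2% came from this was not tested. The median log2 ratio was 3.10 in HT-29 and 1.64 with input above 0, beside 1.14 and 0.83 over all transcripts of that table. In CaCo-2 it was 4.63 and 1.76, beside 0.82 and 0.65. A high share was not particular to snRNAs. Among HT-29 snoRNAs, 91 of 95 reached 2-fold (95.8%), or 92.9% of those with input above 0. Their median log2 ratio was 3.89, or 2.68 with input above 0. Among CaCo-2 snoRNAs, 42 of 49 reached 2-fold (85.7%), or 58.8% of those with input above 0. Their median was 4.10, or 1.35 with input above 0. Shares were lower for the class misc_RNA, at 60.0% (HT-29) or 53.4% (CaCo-2, at least 1 FPKM). In the authors' deposited table, q was at or below 0.05 for 6 of 44 snRNA transcripts in HT-29, beside 3.08% of all transcripts. These were both U4 genes and 4 U2 copies. In the authors' deposited table for CaCo-2, q was at or below 0.05 for 0 of 35, beside 2.24% of all, and the lowest q of an snRNA was 0.567.

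For RNAs this short, FPKM could be turned back into fragments, because low values at a given length lay near whole multiples of the smallest one. Of the values at 6 to 20 multiples, between 80.0% (4 of 5, CaCo-2 input) and 96.9% (31 of 32, HT-29 RIP) lay within 0.1 of a whole number. Counts were rounded to the nearest whole number. The FPKM of 1 fragment fell steeply with length. In the RIP of HT-29, 1 fragment was 340 FPKM for RNU6-1283P (105 nt) and 2.95 FPKM for RNU2-22P (212 nt). In the RIP of CaCo-2, it was 309 FPKM for RNU6-1043P (99 nt) and 1.39 FPKM for RNU4-86P (219 nt). RNU2-22P and RNU4-86P were named after their values were seen, as the ends of the range. A high FPKM of a short copy therefore did not mean many molecules, and levels of different families are compared below in fragments as well. Fragments could be set for 43 of 44 transcripts for HT-29 and 33 of 35 for CaCo-2. The U7 transcripts RNU7-19P (66 nt, 18848 FPKM in HT-29) and U7 (63 nt, 20321 FPKM in CaCo-2) and the U6 copy RNU6-1302P (61 nt, 27730 FPKM in CaCo-2) were too short for this. All of these had input listed at 0, and their number of fragments is unknown.

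**Figure D2:**
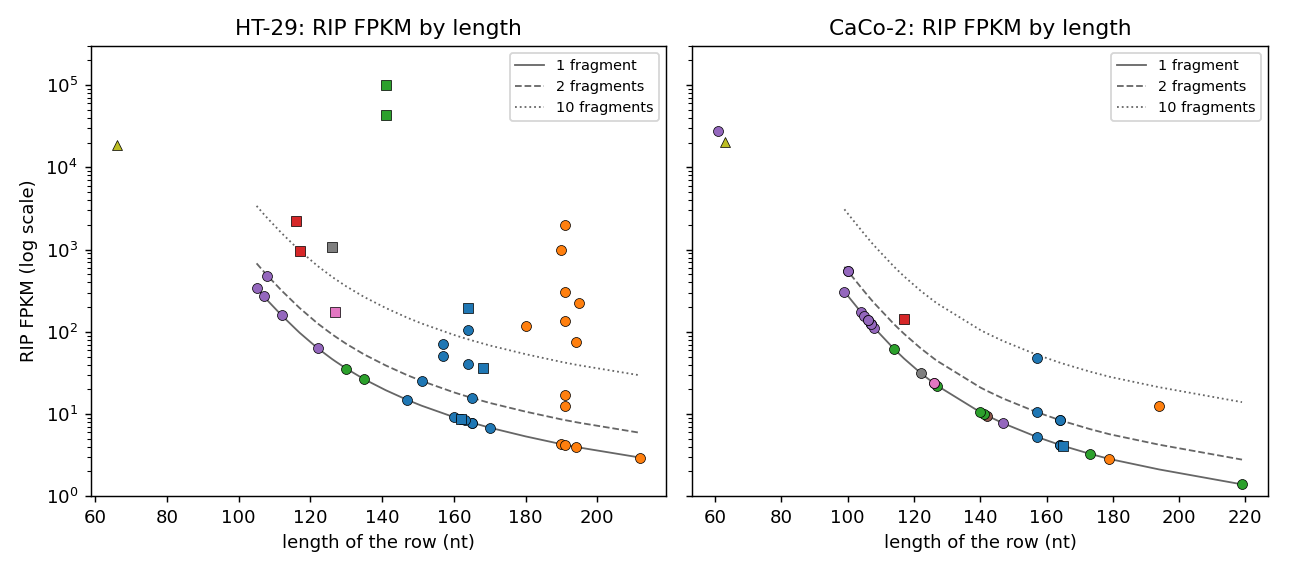
RIP FPKM (log scale) of each snRNA transcript against its length in nucleotides, with lines for the FPKM of 1, 2 and 10 fragments; squares are genes, circles copies and triangles U7, in blue for U1, orange for U2, green for U4, red for U5, purple for U6, brown for U11, pink for U4atac, grey for U6atac and olive for U7. In CaCo-2 most points lie on the line of 1 fragment, and in HT-29 the U4 genes lie far above the line of 10.

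In HT-29 the 43 transcripts whose fragments could be set, RNU7-19P not among them, held 8474 RIP fragments and 1771 input fragments. RNU4-1 and RNU4-2 held 7424 of these RIP fragments (87.6%) and 1293 of the input fragments (73.0%). Without them, 1050 RIP and 478 input fragments remained. In CaCo-2 the 33 transcripts whose fragments could be set held 53 RIP fragments and 5 input fragments. A single RIP fragment was all there was for 19 of 43 transcripts of HT-29 (44.2%, 30.4 to 58.9% as Wilson 95% interval) and for 25 of 33 in CaCo-2 (75.8%, 59.0 to 87.2%), and each of these had input listed at 0. For snoRNAs, the share at 1 fragment was 15.4% (12 of 78, 9.03 to 25.0%) in HT-29 and 42.1% (16 of 38, 27.9 to 57.8%) in CaCo-2. For the class misc_RNA it was higher than for snRNAs, at 71.4% (5 of 7, 35.9 to 91.8%) in HT-29 and 90.5% (19 of 21, 71.1 to 97.3%) in CaCo-2. Such intervals cover counting error only, and PCR copies of a molecule are counted as separate fragments.

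**Figure D3:**
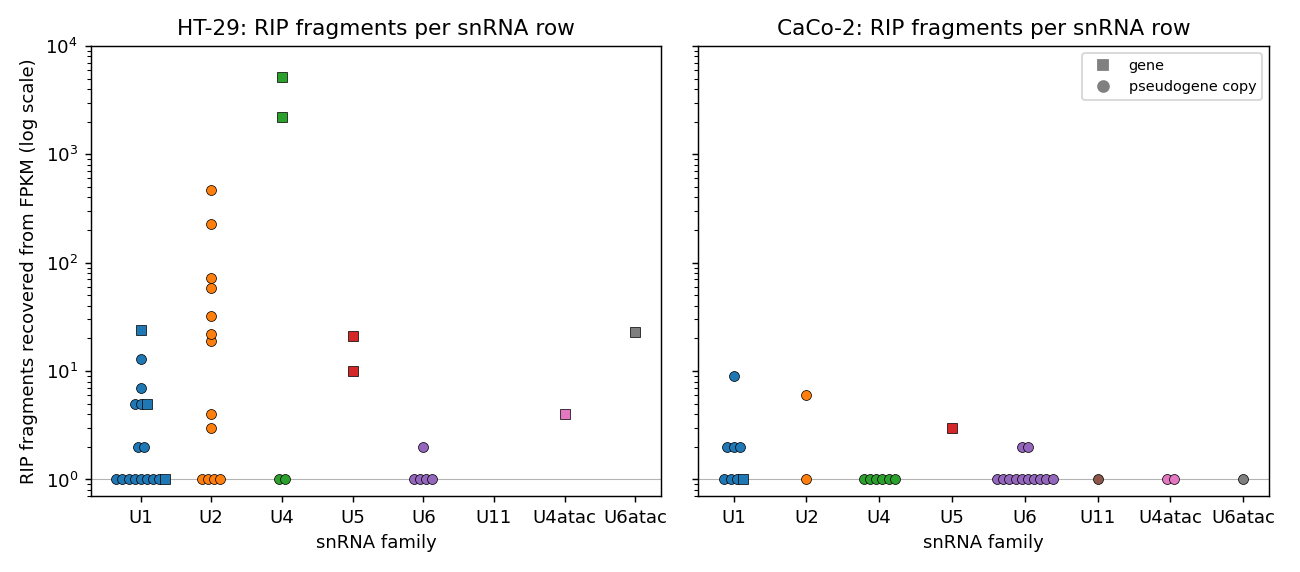
RIP fragments per transcript (log scale) by snRNA family in each line, with squares for genes, circles for pseudogene copies and 1 colour per family; the grey line marks 1 fragment. U4 genes and U2 copies reach the highest counts in HT-29, and none of the 33 CaCo-2 transcripts plotted exceeds 9 fragments. RNU7-19P, U7 and RNU6-1302P, whose fragments could not be set, are not plotted.

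U4 is the RNA that keeps U6 inactive before splicing starts, and both of its human genes were listed in HT-29. RNU4-2 (hg19 chromosome 12, 120729566 to 120729706) was at 15941 FPKM in the input and 101301 FPKM in the RIP, or 848 and 5194 fragments. Its RIP level was 6.35-fold the input (95% counting interval 5.91 to 6.84) (q = 5.53e-11 as given in the authors' deposited table). RNU4-1 (chromosome 12, 120730900 to 120731040), 1193 nt away, was at 8365 FPKM in the input and 43487 FPKM in the RIP, or 445 and 2230 fragments. This was 5.20-fold (4.69 to 5.77) (q listed at 0 in the authors' deposited table). Both genes had intervals well above 2-fold, and they had far more fragments than any other snRNA gene. Fold intervals here and below take no account of the selection of transcripts higher in the RIP, so one above 1 is no test. RNU4-2 held 70.0% (Wilson 68.9 to 71.0%) of the fragments of the pair in the RIP and 65.6% (63.0 to 68.1%) in the input. Because the genes are nearly identical in sequence, how reads were divided between them is uncertain.

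The remaining U4 transcripts were copies, 2 for HT-29 and 6 for CaCo-2. Each had input listed at 0 and 1 RIP fragment. They ranged from 26.5 to 35.7 FPKM in HT-29 and from 1.39 to 61.8 FPKM in CaCo-2, a spread that followed their lengths of 114 to 219 nt. Neither RNU4-1 nor RNU4-2 was listed in CaCo-2, and their levels there were not analysed here.

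U5 aligns the exon ends during both steps of splicing and works in both spliceosomes. RNU5D-1 (chromosome 1, 45196727 to 45196842) was at 271 FPKM in the input and 2250 FPKM in the RIP of HT-29, or 2 and 21 fragments. That was 8.29-fold (2.03 to 73.0) (q = 0.297 as given in the authors' deposited table). RNU5F-1 lies 9152 nt from it (chromosome 1, 45187458 to 45187574). In HT-29 it was at 245 FPKM in the input and 974 FPKM in the RIP, or 2 and 10 fragments, a ratio of 3.97 (0.847 to 37.3). In CaCo-2 RNU5F-1 was listed at 0 in the input and at 142 FPKM in the RIP, which is 3 fragments. It was the only snRNA gene listed in both lines, and only the interval of RNU5D-1 lay above 1. For RNU5F-1, q was 0.663 in HT-29 and 0.567 in CaCo-2 in the authors' deposited table.

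The minor spliceosome was represented by 1 gene each of U4atac and U6atac in HT-29. RNU6ATAC (chromosome 9, 137029561 to 137029686) was at 483 FPKM in the input and 1077 FPKM in the RIP, or 9 and 23 fragments. Its ratio was 2.23 with a counting interval of 0.994 to 5.47, which includes 1. RNU4ATAC (chromosome 2, 122288457 to 122288583) was at 49.4 FPKM in the input and 174 FPKM in the RIP, or 1 and 4 fragments. Its ratio of 3.53 had an interval of 0.350 to 174, so a difference was not detectable at this depth. The authors' deposited table gives q of 0.618 to RNU6ATAC and of 0.960 to RNU4ATAC. CaCo-2 listed minor spliceosome copies only. RNU11-2P was at 9.58 FPKM, RNU4ATAC11P and RNU4ATAC16P at 23.7 FPKM each and RNU6ATAC30P at 31.6 FPKM, each of them 1 RIP fragment with input listed at 0; they are named after their values were seen.

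U1 recognises the 5′ splice site, and its family holds variant genes (named RNVU1) beside a large set of copies. Over all U1 transcripts, HT-29 had 72 RIP and 16 input fragments and CaCo-2 had 19 and 1. RNVU1-6 (chromosome 1, 145382757 to 145382920) was at 58.7 FPKM in the input and 194 FPKM in the RIP of HT-29, or 9 and 24 fragments. Its ratio was 3.31 (1.49 to 8.11) (q = 0.307 as given in the authors' deposited table). RNVU1-13 (chromosome 1, 147994146 to 147994313) was at 11.3 and 36.1 FPKM, or 2 and 5 fragments, a ratio of 3.18 (0.521 to 33.4). RNVU1-11 in HT-29 and RNVU1-15 in CaCo-2 were listed at 0 in the input, with 8.61 and 4.10 FPKM in the RIP, 1 fragment each. RefSeq annotation of GRCh38.p14 now names RNVU1-11 RNVU1-2 and lists it as a pseudogene. Of the U1 genes, only RNVU1-6 had an interval above 1.

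Among the U1 copies, RNU1-60P (chromosome 17, 56736510 to 56736666) had input above 0 in both lines. In HT-29 it was at 17.1 FPKM in the input and 50.8 FPKM in the RIP, or 2 and 5 fragments, a ratio of 2.96 (0.488 to 31.3). In CaCo-2 it was at 5.38 and 47.5 FPKM, or 1 and 9 fragments, a ratio of 8.83 (1.22 to 387). The difference between the lines was not tested. RNU1-67P (chromosome X, 118557705 to 118557868) was at 13.0 and 105 FPKM in HT-29, or 2 and 13 fragments, a ratio of 8.08 (1.83 to 73.8). RNU1-34P had input listed at 0 in both lines. In HT-29 its 71.1 FPKM was 7 fragments, which is 2.77-fold a floor of 3 input fragments. In CaCo-2 its 10.6 FPKM was 2 fragments, under that floor. RNU1-136P in HT-29 was at 40.5 FPKM, or 5 fragments, at least 2.07-fold above the floor; it was named after its values were seen. RNU1-122P had 1 input and 2 RIP fragments in HT-29. Of the other 9 U1 copies of HT-29, all with input listed at 0, RNU1-19P had 2 RIP fragments and the rest 1. The smallest q of these U1 copies was 0.207 in the authors' deposited table, that of RNU1-34P in HT-29.

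**Figure D4:**
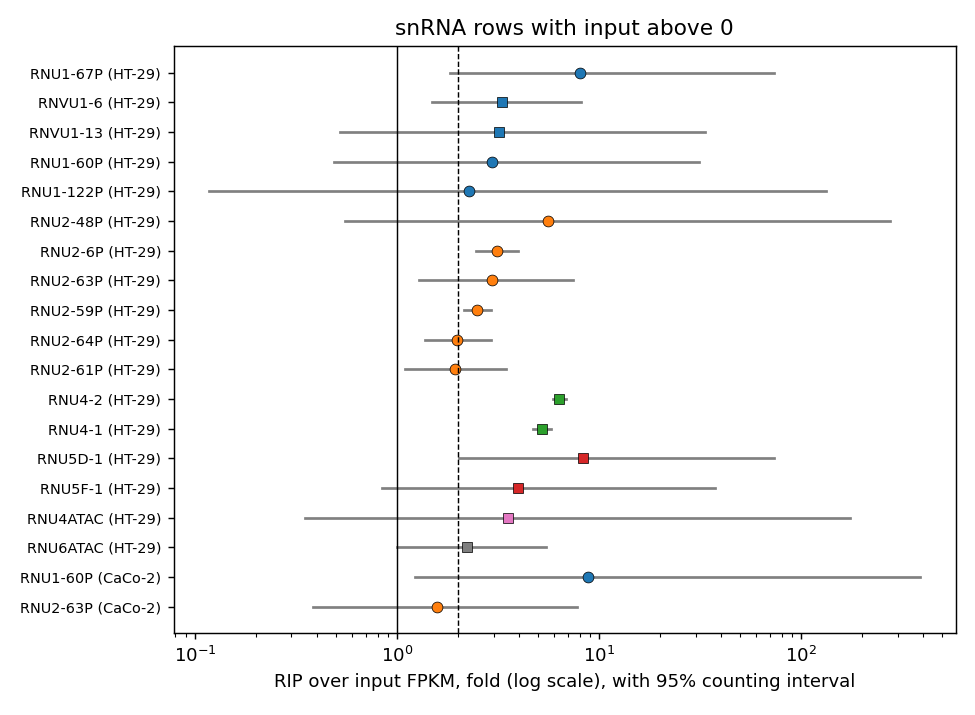
Fold of RIP over input FPKM (log scale) for each snRNA transcript with input above 0, with bars for the 95% counting interval from the recovered fragments; squares are genes and circles copies, in blue for U1, orange for U2, green for U4, red for U5, pink for U4atac and grey for U6atac. The solid line marks no difference and the dashed line 2-fold. Folds run from 1.93 to 8.29 in HT-29, and 10 of 17 intervals there lie above 1. The intervals take no account of the selection of transcripts higher in the RIP.

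U2 binds the branch point of the intron. All listed U2 transcripts were pseudogene copies, 13 for HT-29 and 2 for CaCo-2, and those of HT-29 were the deepest snRNA measurements after the U4 genes, with 912 RIP and 448 input fragments. RNU2-59P (chromosome 10, 103124602 to 103124792), inside BTRC, was at 798 FPKM in the input and 1983 FPKM in the RIP, or 263 and 470 fragments. Its ratio was 2.48 (2.13 to 2.90) (q = 0.000128 as given in the authors' deposited table). RNU2-6P (chromosome 13, 46948536 to 46948725), inside RUBCNL, was at 313 and 976 FPKM, or 101 and 227 fragments. Its ratio was 3.12 (2.45 to 3.98) (q = 2.43e-05 as given in the authors' deposited table). These copies had narrow intervals, above 2-fold in both cases.

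RNU2-64P (chromosome 3, 73160143 to 73160333) was lower, at 155 and 308 FPKM, or 51 and 73 fragments, a ratio of 1.99 (1.37 to 2.90). RNU2-61P (chromosome 6, 89773219 to 89773409) was at 69.8 and 135 FPKM, or 23 and 32 fragments, a ratio of 1.93 (1.10 to 3.46). These were the only snRNA transcripts of HT-29 under 2-fold. In the authors' deposited table their q was 0.212 and 0.541.

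Other U2 copies had input listed at 0. RNU2-23P (chromosome 11, 64915055 to 64915249) was listed at 0 in the input and at 227 FPKM in the RIP of HT-29. This is 58 fragments and 27.3-fold the floor of 3 input fragments. RNU2-5P (chromosome 9, 72803487 to 72803666), inside MAMDC2, was listed at 0 in the input and at 117 FPKM in the RIP. This is 22 fragments and 9.73-fold the floor. Counting error of the RIP fragments is left out of both folds. The authors' deposited table gives q of 2.18e-06 to RNU2-23P and of 0.0106 to RNU2-5P. With RNU1-34P and RNU1-136P they were the 4 snRNA transcripts with input listed at 0 whose RIP exceeded 3 fragments, among those whose fragments could be set. U2 copies resemble U2 and each other closely, so the assignment of reads to one of them is uncertain. RNU2-48P had 1 input and 4 RIP fragments, RNU2-36P had 0 and 3, and the 4 remaining U2 copies of HT-29 had 0 and 1.

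RNU2-63P (chromosome 2, 88315873 to 88316066), listed as an snRNA and not as a pseudogene in RefSeq, was the U2 copy present in both lines. In HT-29 it was at 25.6 FPKM in the input and 75.7 FPKM in the RIP, or 9 and 19 fragments, a ratio of 2.96 (1.28 to 7.45). In CaCo-2 it was at 7.89 and 12.5 FPKM, or 4 and 6 fragments, a ratio of 1.58 (0.382 to 7.76), which was the only CaCo-2 transcript under 2-fold. The interval lay above 1 in HT-29 and included 1 in CaCo-2, and the difference between the lines was not tested.

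U6 forms the catalytic centre of the spliceosome with U2. Every listed U6 transcript was a copy with input listed at 0, 5 for HT-29 and 13 for CaCo-2, and together they had 6 and 14 RIP fragments, without RNU6-1302P. In HT-29 the highest was RNU6-31P (chromosome 2, 201694732 to 201694839) at 483 FPKM, which is 2 fragments. RNU6-1283P at 340 FPKM, RNU6-950P at 270 FPKM, RNU6-593P at 158 FPKM and RNU6-866P, the last of the family, at 63.3 FPKM had 1 fragment each. In CaCo-2, RNU6-930P and RNU6-299P at 550 FPKM each had 2 fragments. RNU6-1043P at 309 FPKM, RNU6-564P at 174 FPKM and RNU6-31P at 112 FPKM had 1 fragment each. RNU6-31P stood above RNVU1-6 in HT-29 by FPKM, at 483 against 194, and below it by fragments, at 2 against 24. No U6 copy whose fragments could be set exceeded the floor of 3 fragments, so no fold is given for any U6 copy.

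Transcripts of 1 fragment also shared their deposited statistics. In the authors' deposited table, the HT-29 transcripts with 1 fragment that formed a locus of their own shared a p of 0.14 (4 transcripts), and those of CaCo-2 shared a p of 0.161 (7 transcripts). Of all pseudogene copies, 18 of 34 for HT-29 and 24 of 32 for CaCo-2 (fragments could be set for 31 of them) had 1 RIP fragment and input listed at 0.

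Most snRNA copies lie inside other genes. Of 74 transcripts, 71 matched a RefSeq gene of GRCh38.p14 by name, and 51 of these lay within the span of another RefSeq gene, on either strand. In HT-29, 7 transcripts lay within the span of another listed transcript, each on the same strand, and in CaCo-2 9 did, 4 on the same strand and 5 on the opposite one. RNU1-19P within BMPR1A (host 3.51 FPKM in the input and 6.03 in the RIP) and RNU2-68P within HDAC8 (host 0 and 6.36 FPKM) are examples, named after their values were seen. The part of reads from host transcripts in the values of these copies was not tested.

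The protein partners of snRNAs were read from lists of 124 gene names, with 1 transcript per gene, that with the highest RIP FPKM. In HT-29, 60 names were listed and 35 of them were at least 2-fold above input, beside 55.6% of all gene names, and their median log2 ratio was 1.13 beside 1.12. In CaCo-2, 60 names were listed and 25 were at least 2-fold above input, beside 41.0%, with a median of 0.84 beside 0.83. Each median was close to that of all gene names in its table. In the authors' deposited table, q was at or below 0.05 for 4 of the 60 in HT-29, beside 263 of all 6489 gene names. In CaCo-2 it was so for 1 of 60, beside 199 of 6569. Many of the transcripts taken were not of the class protein_coding but of retained_intron, processed_transcript or nonsense_mediated_decay. The values are therefore those of RNAs of these genes, coding or not, and say nothing of the proteins themselves.

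By role, the proteins of the U4/U6.U5 complex had 11 of 12 listed genes at 2-fold or more for HT-29 and 4 of 11 for CaCo-2. The shares over all gene names were 55.6% and 41.0%. Of the 12 HT-29 genes, 5 had no input signal and so passed 2-fold by construction, and of the 11 CaCo-2 genes 3 did. TXNL4A in HT-29 was close to this, at 0.0042 FPKM in the input. Only the HT-29 transcripts of EFTUD2 and USP39 were of the class protein_coding, so the HT-29 count says little about mRNAs of this complex. EFTUD2, the GTPase of U5, was at 5.17 FPKM in the input and 12.7 FPKM in the RIP of HT-29 (q = 0.0212 as given in the authors' deposited table). Its CaCo-2 transcript was another one, of the class retained_intron, listed at 0 in the input and at 1.77 FPKM in the RIP. USP39, which the complex needs to assemble, was at 1.51 and 5.15 FPKM in HT-29. A retained_intron transcript of SART1, another component, was at 2.53 and 5.60 FPKM in CaCo-2. The Sm core had 4 of 5 for HT-29 and 1 of 5 for CaCo-2. Of the HT-29 genes past 2-fold, SNRPE and SNRPD3 had input listed at 0, and SNRPG was at 0.0165 FPKM in the input. The SNRPD3 transcript was of the class nonsense_mediated_decay and that of SNRPG a processed_transcript. SNRPD2 was at 16.1 and 79.1 FPKM in HT-29 and at 0.817 and 3.48 FPKM in CaCo-2, from different transcripts in the 2 lines. It was the CaCo-2 gene past 2-fold. Its q was 0.167 in HT-29 and 0.834 in CaCo-2 in the authors' deposited table. SNRPE was listed at 0 in the input and at 20.2 FPKM in the RIP of HT-29 (q = 0.0408 as given in the authors' deposited table).

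The LSm ring, which binds U6 in place of Sm proteins, had 1 of 3 listed genes at 2-fold for HT-29 and 2 of 3 for CaCo-2. Input was listed at 0 for 0 and 1 of these genes. For this and the roles below, the shares over all gene names were again 55.6% and 41.0%. Proteins of U1 had 3 of 6 and 5 of 7, with input at 0 for 0 and 4. SNRNP70, the U1 70K protein, was at 0.339 and 10.2 FPKM in HT-29 and at 2.37 and 7.55 FPKM in CaCo-2, again from different transcripts. Its q was 0.684 in HT-29 and 0.263 in CaCo-2 in the authors' deposited table. Proteins of U2 had 5 of 7 and 4 of 9, with input at 0 for 3 and 1. SF3B3 was at 5.86 and 10.1 FPKM in HT-29 and at 4.22 and 10.5 FPKM in CaCo-2. Minor spliceosome proteins had 1 of 5 and 2 of 5, with input at 0 for 0 and 1. Factors of snRNA transcription and 3′ processing had 5 of 12 and 2 of 8, with input at 0 for 3 and 1. Among them, VWA9, an Integrator subunit, was at 5.95 and 9.95 FPKM in HT-29. Factors of snRNP assembly and recycling had 5 of 10 and 5 of 12, with input at 0 for 3 and 4. SSB, the La protein that binds new polymerase III transcripts, was at 0.631 and 5.09 FPKM in CaCo-2 (q = 0.888 as given in the authors' deposited table).

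Markers of cell types were looked up in the same tables, which hold only transcripts higher in the RIP and so cannot check the labelled cell type. Of 12 markers of colon epithelium, 7 were listed in HT-29, with a summed 37.0 FPKM in the input and 109 FPKM in the RIP, and 4 in CaCo-2, with 31.9 and 64.0 FPKM. None of the 7 stromal, 6 blood and immune or 3 endothelial markers was listed in either line, and their levels were not analysed here.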

How the data were processed

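RNA from beta-catenin precipitates and inputs of HT-29 and CaCo-2 was sequenced in 1 library per group. CASAVA 1.4, Bowtie2, TopHat2 2.0.8, Cufflinks, Cuffdiff and hg19 are named in the submitters' processing notes; for strandedness and reads with several matches, the sources used here give nothing. The deposited tables give FPKM normalised by the authors, the authors' log2 fold change, and the authors' p-values and q-values from 1 library per side. Every table column of a library was mapped.

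Computed here (Python 3.11.15, pandas 2.3.3, scipy 1.17.1) was log2 of RIP over input, each plus a pseudocount of 1 FPKM, which understates ratios of low transcripts; transcripts had at least 1 FPKM in a library. Folds printed per transcript use FPKM without a pseudocount. Fragments were recovered from the smallest recurring FPKM at each length up to 220 nt. In HT-29 values of 6 to 20 fragments, 96.9% in the RIP (31 of 32) and 94.7% in the input (18 of 19) lay within 0.1 of a whole number. In CaCo-2 these were 90.0% (9 of 10) and 80.0% (4 of 5), so the check there rests on few values. Lower values helped set the scale, so their wholeness is no check. Simulated data held 178 and 104 transcripts for HT-29 RIP and input, and 147 and 83 for CaCo-2. Of those with up to 10 fragments, 100% were recovered in each library. Their values were exact multiples without noise, on a curve of the fitted form. This checks the code only and says nothing of the scale of the real values. Fold intervals are exact Clopper-Pearson (95%) on the RIP share of both fragment counts, treat fragments as independent and cover counting error only. They were not adjusted for the selection of transcripts higher in the RIP. An input listed at 0 was given a floor of 3 fragments per library. Folds over this floor take the RIP fragments as exact. Total depth of the libraries is unknown from these tables.

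Named were all snRNA genes, transcripts listed in both lines, copies with deposited q at or below 0.05, the 5 highest copies per line with input above 0 and the 5 highest with input at 0, and up to 3 genes per protein list. Members and lists were chosen with earlier results of these data known. Other pseudocounts, filters, thresholds and the authors' deposited fold were tried. Gene names were matched by symbol or synonym to RefSeq annotation of GRCh38.p14. Hosts were genes of that annotation whose span held the whole matched gene, on either strand.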

Additional observations from a re-analysis of the deposited data

How the results depend on the processing

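The direction of every ratio was set by the selection of the tables. The count of HT-29 snRNA transcripts at 2-fold or more, 42 of 44, was also 42 with a pseudocount of 0.1 FPKM, with no filter and with the deposited fold. All 44 passed the filter, and under the deposited fold the 27 with input at 0 were counted as past 2-fold. The count was 29 with a pseudocount of 10 FPKM, and 15 of 17 with input at 0 left out or with 1 FPKM required in both libraries. It was 23 of 25 without transcripts at the smallest recurring FPKM, and 31 at 4-fold. In CaCo-2 the count of 34 of 35 was 23 with a pseudocount of 10 FPKM, 1 of 2 with input at 0 left out or with 1 FPKM in both libraries, 9 of 10 without transcripts at the smallest recurring FPKM, and 32 at 4-fold. The median log2 ratio of 3.10 in HT-29 became 6.21 with a pseudocount of 0.1 and 1.31 with 10, and 1.64 with input at 0 left out or 1 FPKM in both libraries. In CaCo-2 the median of 4.63 became 7.89, 1.75 and 1.76 in the same order. These medians follow the pseudocount by construction where the input is 0. For named transcripts with input above 0, all 38 ratios under other pseudocounts stayed within their counting intervals. Many of these intervals are wide, so this is a weak check. The log2 ratio of RNU1-122P in HT-29 fell from 1.11 to 0.736 with a pseudocount of 10 FPKM, within a fold interval of 0.118 to 133. No paired analysis was possible because each group had 1 library. A single RIP fragment lay behind 19 of 43 HT-29 and 25 of 33 CaCo-2 transcripts whose fragments could be set, which limits what their values can show.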
